A study of Mus musculus with 6 samples.

Results

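Integrins, laminins and nidogens were followed in 6 RNA-seq libraries from material labelled as mouse heart. The 39 genes were all those of 27482 gene symbols in the table that name an integrin α subunit (18 genes), an integrin β subunit (8), a laminin chain (11) or a nidogen (2). Of the libraries, 3 came from mice labelled AAV9-hFNDC4 (genotype FNDC4 overexpression) and 3 from mice labelled AAV9-CTRL (genotype Control). AAV9 is an adeno-associated virus serotype used to carry genes into the heart, and FNDC4 belongs to the proteins that hold a fibronectin type III domain. Both groups were labelled I/R (ischemia/reperfusion, a block of blood flow followed by its return), and hearts were collected after 24 h. The series title speaks of male mice. Age, strain and vector promoter were not given in the sources used here. Fndc4 was not analysed here, and the group labels were therefore not checked against it.

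Integrins are cell surface receptors built of 1 α and 1 β subunit, and the pairing decides which matrix protein is bound. Laminins are trimers of an α, a β and a γ chain that form the first sheet of a basement membrane, and nidogens bridge that sheet to the collagen IV network. In the heart, laminins surround each muscle cell and each capillary, and integrins tie the contractile apparatus and the vessel wall to them.

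Total counts were 34419687 to 35149915 in the AAV9-hFNDC4 libraries and 32975817 to 36074046 in the AAV9-CTRL libraries. Levels are given as CPM, read counts scaled to a common library size after TMM normalization, and values after ± are SD over 3 libraries. The labels do not state whether each library is a separate animal, and the p-values then reflect only how these libraries vary, possibly for technical reasons. Most markers of heart cells were low in both groups. Of 10 cardiomyocyte markers 2 reached a mean of 1 CPM, as did 2 of 10 endothelial, 4 of 10 leukocyte, 4 of 9 measured fibroblast and 2 of 9 measured mural cell markers. Myh6, the main cardiac myosin, stood at 0.245 ± 0.125 CPM in AAV9-hFNDC4 and 0.310 ± 0.237 CPM in AAV9-CTRL, and endothelial Cdh5 at 0.00924 and 0.0502 CPM. Markers that were not low included fibroblast Col1a2 at 1495 CPM in AAV9-hFNDC4 and 1102 CPM in AAV9-CTRL, mural Cspg4 at 390 and 237 CPM, and cardiomyocyte Tnnt2 at 38.1 and 51.7 CPM. The groups are therefore called by their labels, and no value is assigned to a cell type. In bulk samples, fewer cells of a type and less RNA per cell cannot be told apart.

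In AAV9-hFNDC4, the laminin chains Lama5 and Lamc1 and the integrin subunits Itgav and Itgb5 were higher than in AAV9-CTRL, by 1.42-fold to 2.03-fold. Fold changes rose with transcript length over the whole table. With that trend removed, as given below, all 4 still passed. Their log2 fold changes were then 0.46 for Lama5 (in place of 1.02), 0.46 for Lamc1 (0.84), 0.35 for Itgav (0.69) and 0.49 for Itgb5 (0.51). Among expressed integrin genes, Itgb7, Itga10, Itga7 and Itga5 were lower, by 1.33-fold to 2.40-fold. The most abundant β subunit, Itgb1, and the laminin β chains Lamb1 and Lamb2 did not pass the test. A mean of 1 CPM over the 6 libraries was reached by 18 of the 39 genes, and each of these exceeded 1 CPM in all 6 libraries. They comprised 8 α subunits, 5 β subunits, 5 laminin chains and 0 nidogens. On plain library totals, on which the limit was set, the nearest to it were Itga10 above it at 2.43 CPM and Itgam below it at 0.797 CPM.

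The filter on low counts was passed by 23 of the 39 genes, of which 4 were called higher, 8 lower and 11 were not called (edgeR quasi-likelihood test, Benjamini-Hochberg adjusted p under 0.05 over 14663 genes). Over all tested genes 47.1% were called, 22.1% higher and 25.0% lower, so the 12 calls among 23 genes lie close to the background. The median log2 fold change, AAV9-hFNDC4 over AAV9-CTRL, was -0.16 over these 23 genes and 0.0073 over all tested genes. All AAV9-hFNDC4 libraries lay on 1 side of all AAV9-CTRL libraries in 12 of the 23 genes, against 56.6% of all tested genes. Changes of more than 2-fold were called in 1 higher gene, Lama5, against 6.77% of all tested genes, and in 4 lower genes, Itga10, Itgam, Itgax and Itgb6, against 7.18%. Itgam, Itgax and Itgb6 passed the filter only through their AAV9-CTRL libraries and had to differ. The counts of lower genes, the median and the count of genes apart therefore carry no weight for them. The 18 genes at a mean of 1 CPM or more had a median log2 fold change of -0.035. Of these 18, 4 were called higher and 5 lower, and the groups were apart in 9 (56.6% of all tested genes).

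**Figure D1:**
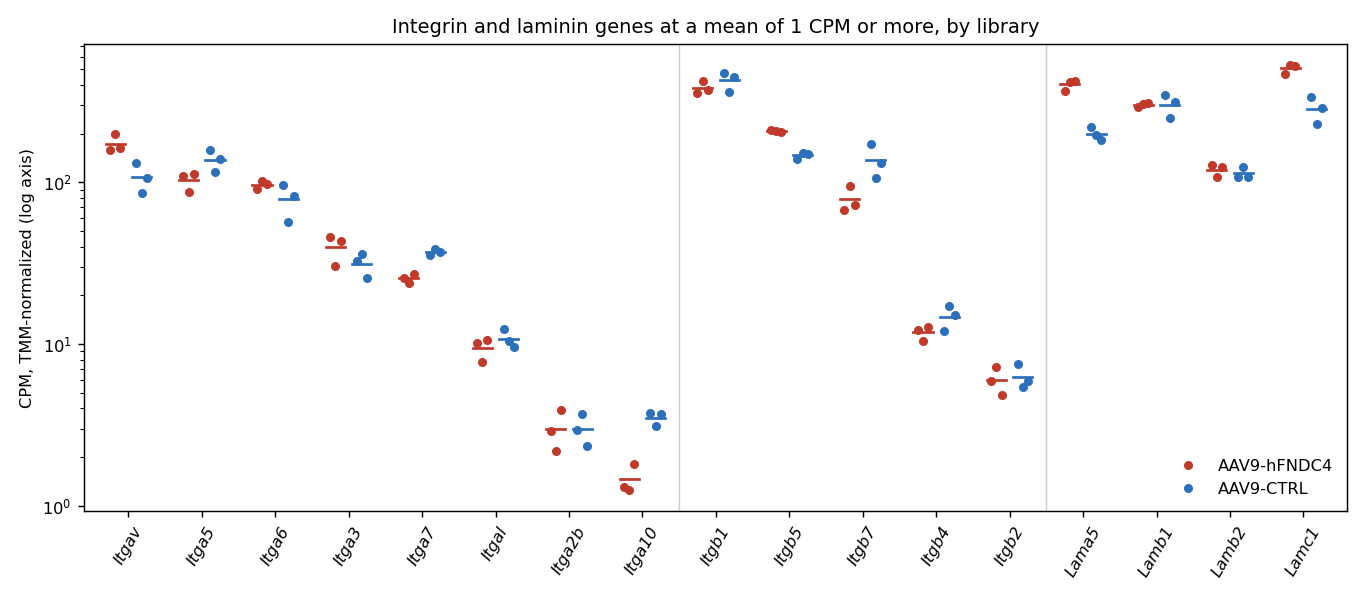
CPM (log axis) of integrin and laminin genes with a mean of at least 1 CPM, with AAV9-hFNDC4 libraries left of AAV9-CTRL libraries. Points are single libraries and short bars are means of 3. The groups are fully apart for Lama5, Lamc1, Itgav and Itgb5 (AAV9-hFNDC4 above) and for Itgb7, Itga10, Itga7 and Itga5 (AAV9-CTRL above).

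Lama5 encodes the laminin α5 chain, the α chain common to adult basement membranes of vessels and epithelia (GRCm38 chromosome 2, 180176373 to 180225859). It had 369, 419 and 424 CPM in the AAV9-hFNDC4 libraries, against 219, 196 and 182 CPM in the AAV9-CTRL libraries. Every AAV9-hFNDC4 library lay above every AAV9-CTRL library, and the log2 fold change was 1.02 (SE 0.11, edgeR adjusted p = 4.37e-05). Lamc1, the γ chain of most laminins (chromosome 1, 153218922 to 153332786), had 469.5, 531 and 527 CPM in AAV9-hFNDC4, against 337, 231 and 288 CPM in AAV9-CTRL. Its groups were also apart, with AAV9-CTRL replicate 2 the lowest, and its log2 fold change was 0.84 (SE 0.14, edgeR adjusted p = 0.000473). Itgav, the αv subunit that binds the RGD sequence of vitronectin and fibronectin (chromosome 2, 83724397 to 83806916), had 159, 198 and 164 CPM in AAV9-hFNDC4, against 131, 85.7 and 106 CPM in AAV9-CTRL. AAV9-hFNDC4 replicate 2 was the highest and AAV9-CTRL replicate 2 the lowest, with a log2 fold change of 0.69 (SE 0.15, edgeR adjusted p = 0.00316). Itgb5, whose protein pairs with αv as a vitronectin receptor (chromosome 16, 33829665 to 33949338), had 212, 209 and 206 CPM in AAV9-hFNDC4, against 139, 152 and 149.5 CPM in AAV9-CTRL. Its libraries were close together within each group, and the log2 fold change was 0.51 (SE 0.094, edgeR adjusted p = 0.00108).

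Promoters of 9 of the 12 called genes were matched in RefSeq (GRCm38.p6), and Lamc1 and Itga7 were among the others. The 250 bases before the start of Lama5, Itgav and Itgb5, which were higher, and of Itgb7, which was lower, are shown because the series title names HIF1α, a factor whose core recognition letters can be looked for there. Capitals mark GC boxes (GGGCGG on either strand), the only searched motif with a match in these 4.
Lama5 promoter, chr2:180225860-180226109, minus strand: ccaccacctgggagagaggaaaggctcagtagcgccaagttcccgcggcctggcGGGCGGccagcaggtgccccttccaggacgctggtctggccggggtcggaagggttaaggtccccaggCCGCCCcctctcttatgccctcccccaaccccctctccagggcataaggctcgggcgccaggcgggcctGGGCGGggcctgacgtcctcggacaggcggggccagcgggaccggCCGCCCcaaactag
Itgav promoter, chr2:83724147-83724396, plus strand: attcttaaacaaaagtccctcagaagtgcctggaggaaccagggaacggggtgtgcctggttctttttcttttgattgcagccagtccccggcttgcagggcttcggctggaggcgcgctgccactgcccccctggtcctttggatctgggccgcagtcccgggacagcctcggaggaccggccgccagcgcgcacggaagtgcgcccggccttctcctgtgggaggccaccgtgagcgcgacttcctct
Itgb5 promoter, chr16:33829415-33829664, plus strand: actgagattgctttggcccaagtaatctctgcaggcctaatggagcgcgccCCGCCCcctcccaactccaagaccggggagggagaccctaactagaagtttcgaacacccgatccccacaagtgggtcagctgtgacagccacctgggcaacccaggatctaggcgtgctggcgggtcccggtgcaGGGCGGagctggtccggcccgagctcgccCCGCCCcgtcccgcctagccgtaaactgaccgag
Itgb7 promoter, chr15:102231936-102232185, minus strand: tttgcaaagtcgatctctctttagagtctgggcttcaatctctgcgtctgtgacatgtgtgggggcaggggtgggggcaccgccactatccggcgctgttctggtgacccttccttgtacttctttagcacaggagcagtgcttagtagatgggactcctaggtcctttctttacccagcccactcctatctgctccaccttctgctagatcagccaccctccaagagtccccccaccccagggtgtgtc

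Lama5 held 4 GC boxes and Itgb5 held 3, while Itgav and Itgb7 held 0. The share of G and C was 72.4% in Lama5, 64.4% in Itgav, 65.2% in Itgb5 and 56.0% in Itgb7. The hypoxia-response core ACGTG (either strand) was in the window of 0 of the 9 genes, against 16.6% of 32851 promoters of the same length. A GC box was found in 4 of the 9 genes, against 32.7% of promoters, and the AP-1 motif TGANTCA in 1 of 9 (Itgax), against 6.7%. In the 4 windows shown no GC box overlapped another searched motif. A match or its absence describes only the letters of these windows.

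Among the other laminin chains, the α chains typical of heart were close to the detection limit. Lama2, the main α chain around muscle cells, had 1 count over the AAV9-hFNDC4 libraries and 19 over the AAV9-CTRL libraries, and Lama4, an α chain of capillaries, had 2 and 15. Lama1 had 0 and 1 and Lama3 13 and 16 counts. None of these passed the filter. Lama5 made up a mean of 99.96% of the α chain level per kb of exon in AAV9-hFNDC4 and 99.66% in AAV9-CTRL.

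The laminin β chains did not pass the test. Lamb1, which joins most laminins, had 291, 306 and 312 CPM in AAV9-hFNDC4, against 345.5, 249 and 313 CPM in AAV9-CTRL. The groups overlapped, and the log2 fold change was 0.0026 (SE 0.12, edgeR adjusted p = 0.988). Lamb2, the β chain of neuromuscular and vessel basement membranes, had 127, 107.5 and 124 CPM in AAV9-hFNDC4, against 108, 125 and 108 CPM in AAV9-CTRL, a log2 fold change of 0.074 (SE 0.11, edgeR adjusted p = 0.607). Lamb3, an epithelial chain, had 10 counts over the AAV9-hFNDC4 libraries and 11 over the AAV9-CTRL libraries. Lamc3, a γ chain, had 11 and 16.

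Nidogens were nearly absent. Nid1 (chromosome 13, 13437551 to 13512269) had 0.300 ± 0.101 CPM in AAV9-hFNDC4 and 0.260 ± 0.0640 CPM in AAV9-CTRL. The groups overlapped, with a log2 fold change of 0.20 (SE 0.59, edgeR adjusted p = 0.804), and with 59 counts in all a modest difference was not detectable at this depth. Nid2 had 8 counts over the AAV9-hFNDC4 libraries and 6 over the AAV9-CTRL libraries. Summed per kb of exon, nidogens reached 0.0642 ± 0.0248 CPM per kb in AAV9-hFNDC4 and 0.0545 ± 0.0255 in AAV9-CTRL, against 70.2 ± 4.53 and 42.8 ± 7.78 for the laminin γ chains, the chains that nidogens bind.

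Per kb of exon, which allows levels of different genes to be set side by side, laminin α chains summed to 35.5 ± 2.66 CPM per kb in AAV9-hFNDC4 and 17.6 ± 1.64 in AAV9-CTRL. Division by length does not remove the trend of fold change with length given below. The β chains summed to 73.1 ± 2.07 and 71.9 ± 6.81 CPM per kb. The ratio of Lamb1 to Lamc1 per kb was 0.809, 0.751 and 0.772 in AAV9-hFNDC4, against 1.34, 1.41 and 1.42 in AAV9-CTRL. These groups were apart, but an exact permutation test over 3 against 3 libraries cannot give a two-sided p below 0.1, which was reached (p = 0.217 adjusted over 13 ratios). The ratio of Lama5 to Lamc1 overlapped between groups, at 0.531 ± 0.00638 in AAV9-hFNDC4 and 0.476 ± 0.0810 in AAV9-CTRL.

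Among the integrin α subunits for the RGD sequence, Itga5 was lower while Itgav was higher. Itga5, whose protein pairs with β1 as the classical fibronectin receptor (chromosome 15, 103344286 to 103366763), had 109, 86.9 and 113 CPM in AAV9-hFNDC4, against 158, 116 and 139 CPM in AAV9-CTRL. The groups were apart by a narrow margin, with a log2 fold change of -0.41 (SE 0.14, edgeR adjusted p = 0.0270). The Itga5 call did not hold when any 1 of 3 libraries was left out. Its log2 fold change was -0.31 with adjusted p = 0.0956 when AAV9-hFNDC4 replicate 2 was dropped, -0.28 with 0.159 for AAV9-CTRL replicate 1, and -0.41 with 0.0847 for AAV9-CTRL replicate 3. Over all its alternatives the adjusted p lay between 0.00493 and 0.159 (edgeR, DESeq2 and limma-voom). Itga2b, the platelet αIIb subunit, had 2.88, 2.19 and 3.91 CPM in AAV9-hFNDC4, against 2.92, 3.70 and 2.33 CPM in AAV9-CTRL, and did not pass. The summed level of 7 measured platelet markers, Itga2b included, was 2.83 to 4.21 CPM in AAV9-hFNDC4 and 3.47 to 5.20 CPM in AAV9-CTRL, and 1 of the 7, Itga2b, reached 1 CPM. Itga8 had 7 and 12 counts.

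Per kb of exon, the ratio of Itgav to Itga5 was 0.905, 1.42 and 0.897 in AAV9-hFNDC4, against 0.518, 0.460 and 0.475 in AAV9-CTRL. The lowest AAV9-hFNDC4 value lay above the highest AAV9-CTRL value, at the smallest p the design allows (exact permutation test, p = 0.1, 0.217 adjusted over 13 ratios). Of all α subunit reads per kb, Itgav made up 28.3% ± 4.05 in AAV9-hFNDC4 and 18.1% ± 1.30 in AAV9-CTRL, and Itga5 27.0% ± 3.19 and 37.4% ± 0.729. Itga6 made up 25.6% ± 1.66 and 21.2% ± 2.80, also without overlap (exact two-sided permutation test, p = 0.1, 0.129 adjusted over 9 shares). The sum over all α subunits overlapped, at 87.0 ± 2.40 CPM per kb in AAV9-hFNDC4 and 83.8 ± 11.9 in AAV9-CTRL.

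**Figure D2:**
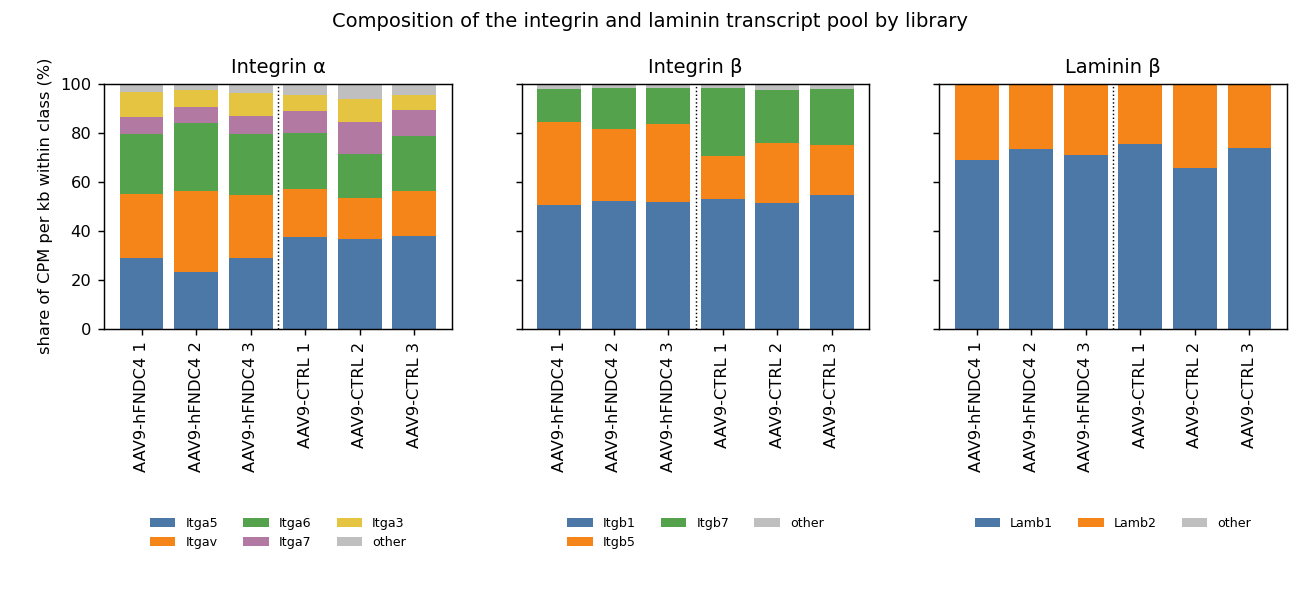
Share of each gene in the summed CPM per kb of exon of its class (%, linear axis), 1 bar per library, with AAV9-hFNDC4 libraries left of the dotted line and AAV9-CTRL libraries right of it. Itgav, Itga6 and Itgb5 take larger shares, and Itga5 and Itgb7 smaller shares, in every AAV9-hFNDC4 library than in any AAV9-CTRL library.

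Of the 3 laminin-binding α subunits, 1 was lower and 2 did not pass. Itga7, the laminin receptor subunit of muscle (chromosome 10, 128933818 to 128958282), had 25.5, 23.9 and 27.2 CPM in AAV9-hFNDC4, against 35.8, 38.8 and 36.9 CPM in AAV9-CTRL. The groups were well apart, with a log2 fold change of -0.54 (SE 0.11, edgeR adjusted p = 0.00194). Itga6, which pairs with β1 or β4, had 91.6, 102 and 97.4 CPM in AAV9-hFNDC4, against 96.6, 56.7 and 82.1 CPM in AAV9-CTRL. Its log2 fold change of 0.30 (SE 0.16, edgeR adjusted p = 0.146) did not pass, and was 0.51 without AAV9-CTRL replicate 1 (adjusted p = 0.0272). Itga3, a receptor subunit for the α5 laminins, had 45.6, 30.5 and 43.7 CPM in AAV9-hFNDC4, against 32.8, 35.95 and 25.5 CPM in AAV9-CTRL. AAV9-hFNDC4 replicate 2 lay within the AAV9-CTRL range. The log2 fold change of 0.35 (SE 0.17, edgeR adjusted p = 0.116) was 0.51 without that library (adjusted p = 0.0201).

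Of the 4 collagen-binding α subunits, Itga10, best known from cartilage, was the only 1 that passed the filter. It had 1.31, 1.25 and 1.82 CPM in AAV9-hFNDC4, against 3.73, 3.09 and 3.68 CPM in AAV9-CTRL. The groups were apart, with a log2 fold change of -1.26 (SE 0.28, edgeR adjusted p = 0.00358). It shares 34.5% of its exon bases (GENCODE vM21, chromosome 3, 96645584 to 96664519) with an overlapping gene on the same strand, whose reads could not be told apart. Itga1, the collagen receptor subunit of smooth muscle and fibroblasts, had 8 counts over the AAV9-hFNDC4 libraries and 6 over the AAV9-CTRL libraries, Itga2 had 2 and 3, and Itga11 had 4 and 4. Itga4, a VCAM1 receptor subunit, had 17 counts over the AAV9-hFNDC4 libraries and 5 over the AAV9-CTRL libraries, and Itga9, a tenascin receptor subunit, had 2 and 24.

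Of the leukocyte α subunits, 1 of 5, Itgal, reached a mean of 1 CPM over the 6 libraries. Itgal (αL, the LFA-1 subunit) had 10.1, 7.73 and 10.6 CPM in AAV9-hFNDC4, against 12.4, 10.4 and 9.54 CPM in AAV9-CTRL. Itgb2, its β partner, had 5.88, 7.18 and 4.86 CPM in AAV9-hFNDC4, against 7.49, 5.42 and 5.92 CPM in AAV9-CTRL. Both overlapped between groups, with log2 fold changes of -0.19 (SE 0.18) and -0.073 (SE 0.22) that did not pass (edgeR adjusted p = 0.425 and 0.806).

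Itgam, the αM subunit of neutrophils and macrophages, had 0 counts in every AAV9-hFNDC4 library and 61, 47 and 60 counts in the AAV9-CTRL libraries. Taking 3 counts over the 3 AAV9-hFNDC4 libraries as the floor, it was at least 62.2-fold lower (edgeR adjusted p = 6.75e-05). In the annotation it shares 70.0% of its exon bases (chromosome 7, 128062640 to 128118491) with an overlapping gene on the same strand, so how reads there were counted is uncertain. Itgax, the αX subunit of dendritic cells (chromosome 7, 128129547 to 128150657), had 3, 2 and 7 counts in AAV9-hFNDC4, against 17, 51 and 66 in AAV9-CTRL. Its log2 fold change was -3.60 (SE 0.69, edgeR adjusted p = 0.00139), and AAV9-CTRL replicate 1 was the lowest of its group. Itgam and Itgax passed the filter only through their AAV9-CTRL libraries, so their tests carry no weight. Itgae had 0.640 ± 0.317 CPM in AAV9-hFNDC4 and 0.834 ± 0.301 CPM in AAV9-CTRL and did not pass, and Itgad had 2 and 9 counts.

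The summed level of 10 leukocyte markers stood at 28.3 to 32.3 CPM in AAV9-hFNDC4 and 45.6 to 58.5 CPM in AAV9-CTRL. Of 6 tested, 2 were lower and 4 did not pass, against 25.0% lower over all tested genes. Cd68 was lower at 11.7 CPM in AAV9-hFNDC4 against 27.9 CPM in AAV9-CTRL, and Coro1a at 8.27 against 12.3 CPM. Lyz2, at 7.04 and 7.62 CPM, and Lcp1, at 2.48 and 1.06 CPM, did not pass. Ptprc stood at 0.0909 and 0.0914 CPM and Adgre1 at 0.00890 and 0.0505 CPM. These marker levels were not corrected for the trend of fold change with length given below. Cd68 and Coro1a are short, at 1.26 and 1.91 kb of exon, as is Lyz2 at 1.32 kb. The part of leukocyte content in the Itgam and Itgax values was not tested.

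Among the β subunits, Itgb5 was higher, Itgb7 and Itgb6 were lower, and Itgb1, Itgb2 and Itgb4 did not pass. Itgb1, the partner of most α subunits (chromosome 8, 128685654 to 128733200), had 357, 421 and 374 CPM in AAV9-hFNDC4, against 476, 361 and 451 CPM in AAV9-CTRL. It overlapped between groups, with a log2 fold change of -0.16 (SE 0.12, edgeR adjusted p = 0.306). Itgb7, the lymphocyte β subunit whose protein pairs with α4 and αE (chromosome 15, 102215995 to 102231944), had 67.6, 94.8 and 73.0 CPM in AAV9-hFNDC4, against 173, 106 and 132 CPM in AAV9-CTRL. The groups were apart, with a log2 fold change of -0.80 (SE 0.18, edgeR adjusted p = 0.00318).

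The level of Itgb7 stood far above those of its known partners. Per kb of exon it averaged 29.3 ± 5.38 CPM per kb in AAV9-hFNDC4 and 51.1 ± 12.6 in AAV9-CTRL, against 0.166 ± 0.0824 and 0.217 ± 0.0783 for Itgae and 0.0157 ± 0.0102 and 0.00514 ± 0.00351 for Itga4. Itgb7 shared no exon bases with another gene in the annotation. It made up 14.9% ± 1.62 of all β subunit reads per kb in AAV9-hFNDC4 and 23.9% ± 3.11 in AAV9-CTRL. Itgb5 made up 31.7% ± 2.32 and 20.8% ± 3.48, and Itgb1 51.5% ± 0.872 and 53.1% ± 1.61. The shares of Itgb5 and Itgb7 did not overlap between groups (exact two-sided permutation test, p = 0.1, the smallest possible, and 0.129 adjusted over 9 shares), and that of Itgb1 did (p = 0.3).

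Itgb4, the β subunit of hemidesmosomes, had 12.2, 10.4 and 12.8 CPM in AAV9-hFNDC4, against 12.01, 17.3 and 15.02 CPM in AAV9-CTRL, a log2 fold change of -0.32 (SE 0.17, edgeR adjusted p = 0.137). Itgb6, an epithelial β subunit, had 4, 3 and 5 counts in AAV9-hFNDC4, against 13, 13 and 16 in AAV9-CTRL. Its groups were apart, with a log2 fold change of -1.93 (SE 0.61, edgeR adjusted p = 0.0219). It passed the filter only through the AAV9-CTRL libraries, so its test carries no weight. With so few counts this call also depended on single libraries. Dropping AAV9-hFNDC4 replicate 1 gave an edgeR adjusted p of 0.0590, dropping replicate 2 of that group gave 0.0615, and dropping AAV9-CTRL replicate 3 gave 0.0636. It was 0.105 when no filter on counts was applied, and lay between 0.0130 and 0.105 over all alternatives. Itgb3, the platelet and endothelial partner of αv, had 2 counts over the AAV9-hFNDC4 libraries and 20 over the AAV9-CTRL libraries. Itgb8 had 4 and 0.

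**Figure D3:**
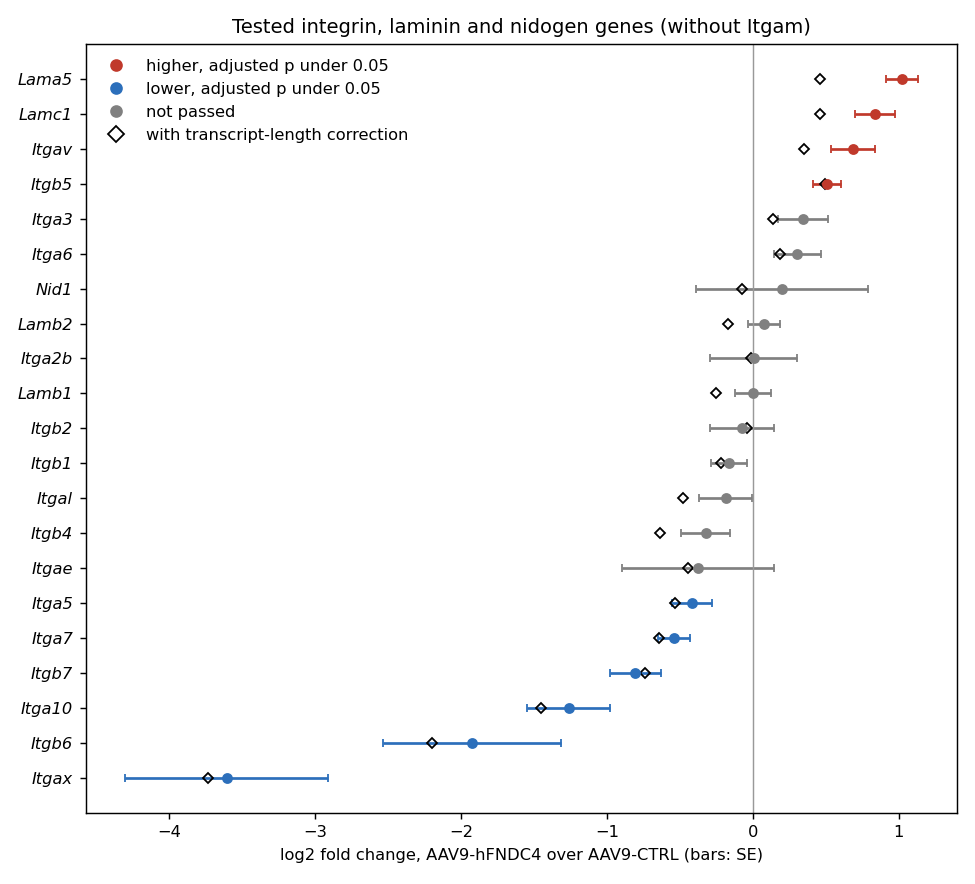
Log2 fold change of tested genes, AAV9-hFNDC4 over AAV9-CTRL (horizontal axis, circles with SE bars), with the value after a transcript-length correction as open diamonds. Itgam is left out because it had 0 counts in AAV9-hFNDC4. The corrected values of Lama5, Lamc1 and Itgav lie closer to 0 than the uncorrected ones and still pass, while that of Itgb5 is nearly the same.

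Fold changes were larger for longer transcripts over the whole table. The median log2 fold change was -0.50 in the shortest 10% of tested genes and 0.46 in the longest 10%, and laminin and integrin transcripts are long. With a length trend removed per library, Lama5 had a log2 fold change of 0.46 (SE 0.086, edgeR adjusted p = 0.00186) in place of 1.02, and Lamc1 one of 0.46 (SE 0.10, adjusted p = 0.00425) in place of 0.84. For Itgav it was 0.35 (SE 0.12, adjusted p = 0.0390) in place of 0.69, and for Itgb5 0.49 (SE 0.083, adjusted p = 0.00102) in place of 0.51. All 12 calls were shared with the corrected fit, which added Itgal (-0.48, adjusted p = 0.0430) and Itgb4 (-0.64, adjusted p = 0.0186) as lower. The part of length in these differences was not tested further. Sums, shares and ratios per kb of exon were not corrected for this trend. Its log2 difference, AAV9-hFNDC4 over AAV9-CTRL, was 0.56 for Lama5, 0.38 for Lamc1, 0.26 for Lamb1, 0.35 for Itgav and 0.12 for Itga5.

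**Figure D4:**
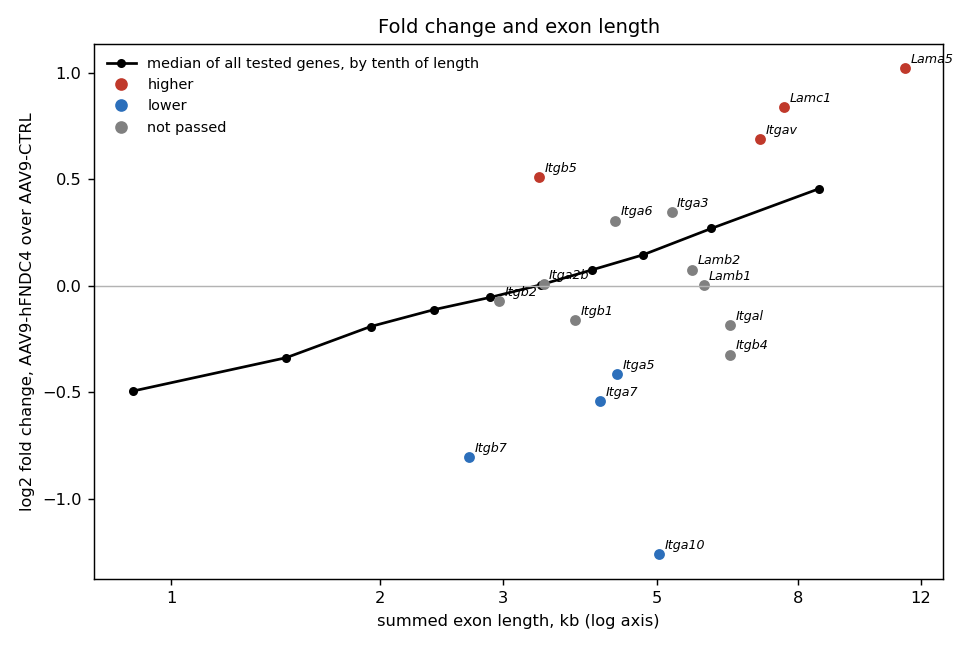
Log2 fold change, AAV9-hFNDC4 over AAV9-CTRL, against summed exon length in kb (log axis) for genes with a mean of at least 1 CPM, beside the median of all tested genes in 10 bins of length (black line). The line runs from -0.50 to 0.46, and Lamc1, Itgav and Itgb5 lie above it, as do Itga3 and Itga6, which did not pass. Lama5, at 11.4 kb, lies beyond the end of the line and higher than 0.46.

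Genes of the adhesion complex that links integrins to actin changed in both directions. Of 37 genes, 35 were tested, 7 were higher, 7 lower and 21 did not pass, with a median log2 fold change of 0.082 (0.0073 over all tested genes, of which 47.1% were called). Dock1, a Rac activator downstream of FAK, was higher at 82.8 ± 3.05 CPM in AAV9-hFNDC4 against 44.4 ± 2.86 CPM in AAV9-CTRL, a log2 fold change of 0.90 (SE 0.10, edgeR adjusted p = 6.53e-05). Tln2, the talin form rich in heart muscle that switches integrins on, was higher by 1.07 (SE 0.14), and Tns2, a tensin, by 0.70 (SE 0.094). With the length correction these log2 fold changes were 0.55 for Dock1, 0.46 for Tln2 and 0.53 for Tns2, and all 3 passed. Tln1, the widely expressed talin, had 452 ± 4.39 CPM in AAV9-hFNDC4 and 422 ± 76.3 CPM in AAV9-CTRL and did not pass. It turned negative and passed with the length correction (-0.32, edgeR adjusted p = 0.0186).

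Among the lower members of the adhesion complex, Cd151, a tetraspanin partner of laminin-binding integrins, stood at 85.3 ± 7.13 CPM in AAV9-hFNDC4 against 119 ± 6.83 CPM in AAV9-CTRL (log2 fold change -0.48, SE 0.11, edgeR adjusted p = 0.00308). Actn4, an actin crosslinker, was lower with -0.55 (SE 0.12), and Sharpin, an inhibitor of integrin activation, with -0.44 (SE 0.11). With the length correction Sharpin did not pass (-0.20, edgeR adjusted p = 0.107), and 8 genes of this list were higher and 11 lower. Over all tested genes, the corrected fit called fewer genes higher and fewer lower than the uncorrected fit. Without AAV9-CTRL replicate 1, 4 genes of the list were lower in place of 7. Fewer of all tested genes were also called lower without that library.

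Other components of the basement membrane and its receptors were counted in the same way. Of 26 genes, 19 were tested, 10 were higher, 3 lower and 6 did not pass, with a median log2 fold change of 0.38. Over all tested genes 22.1% were called higher and 25.0% lower. These shares belong to the uncorrected fit. With the length correction 6 genes of this list were higher and 3 lower, with a median of 0.15. In the corrected fit the median over all tested genes was -0.0040, and fewer of them were called in either direction. Dag1, dystroglycan, the non-integrin laminin receptor, was higher at 248 ± 13.1 CPM in AAV9-hFNDC4 against 127 ± 9.57 CPM in AAV9-CTRL, a log2 fold change of 0.96 (SE 0.10, edgeR adjusted p = 4.04e-05). Hspg2, perlecan, the large heparan sulfate proteoglycan of the laminin sheet, was higher by 1.10 (SE 0.12), which was 0.45 with the length correction, and Col4a5, a collagen IV chain, by 1.13 (SE 0.14). The lower genes were Pxdn, a peroxidase that crosslinks collagen IV, with -2.76 (SE 0.60), Sparc, a collagen-binding matrix protein, with -0.45 (SE 0.11), and Tgm2, a crosslinking enzyme, with -0.38 (SE 0.11). Pxdn had 5, 3 and 8 counts in AAV9-hFNDC4, against 49, 17 and 35 in AAV9-CTRL, and passed the filter only through the AAV9-CTRL libraries. Its call, 1 of the 3 lower, therefore carries no weight. The Tgm2 call did not hold when AAV9-hFNDC4 replicate 1 was dropped (edgeR adjusted p = 0.0512), nor for replicate 3 of that group (0.0557) or for AAV9-CTRL replicate 1 (0.0643, with a log2 fold change of -0.26).

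Marker lists of matrix-producing cells were set beside the laminin values. The summed level of 9 measured fibroblast markers was 2616 to 3174 CPM in AAV9-hFNDC4 and 1784 to 2228 CPM in AAV9-CTRL. Of 5 tested, Col1a2, Col3a1 and Pdgfra were higher and 2 did not pass, against 22.1% higher over all tested genes. Pdgfra stood at 216 CPM in AAV9-hFNDC4 and 93.6 CPM in AAV9-CTRL, and Col3a1 at 646 and 345 CPM. Dcn, Lum and Tcf21 of the same list had 9, 1 and 1 counts over the 6 libraries. That of 9 measured mural cell markers was 531 to 595 CPM in AAV9-hFNDC4 and 298 to 360 CPM in AAV9-CTRL, nearly all of it from Cspg4 and Pdgfrb, which were higher. Notch3 and Tagln of the same list were lower, at 0.191 and 0.163 CPM in AAV9-hFNDC4 against 1.14 and 0.575 CPM in AAV9-CTRL. Both passed the filter only through their AAV9-CTRL libraries, so their calls carry no weight. The median log2 fold change of the 4 tested mural markers was -0.54, but it includes Notch3 and Tagln and therefore carries no weight. The other 2, Cspg4 and Pdgfrb, had log2 fold changes of 0.72 and 1.05. Acta2, the smooth muscle actin, stood at 0.154 CPM in AAV9-hFNDC4 and 0.314 CPM in AAV9-CTRL. The endothelial list summed to 2.38 to 3.74 CPM in AAV9-hFNDC4 and 3.95 to 5.89 CPM in AAV9-CTRL, with Cldn5 and Emcn at 0. These marker levels were not corrected for the trend of fold change with length. The markers called higher have 5.35 kb (Col1a2) to 8.77 kb (Pdgfra) of exon, and Col1a1, which did not pass, has 5.93 kb. The part of these cell types in the laminin and integrin values was not tested.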

How the data were processed

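The authors deposited raw read counts per gene symbol, 1 column per library. fastp, HISAT2, HTSeq, R 3.2.0 and DESeq2 and the build GRCm38 (mm10) are named per the submitters' processing notes, and the annotation release, strand setting and rule for overlapping genes were not given in the sources used here. Testing used edgeR 4.0.16 in R 4.3.3 (filterByExpr, TMM, robust quasi-likelihood F test, Benjamini-Hochberg over 14663 tested genes, threshold 0.05). The SE was derived from the log2 fold change and the F statistic (absolute change over root F). Exon lengths, positions and overlaps come from the GENCODE vM21 basic annotation (GRCm38), which gave a length for 91.3% of tested genes. The length correction took a loess trend (span 0.4) of log2 CPM on length out of each library. Shares and ratios used counts per kb of exon and exact two-sided permutation tests of 3 against 3 libraries. Floors cover counting error only. The rule for named genes took the 39 genes, those at a mean of 1 CPM with values per library and the others mostly by counts, and of each other list the 3 called genes with the smallest p in each direction. Tln1, and genes named in the closing section, were chosen after their values were seen. The members and lists were chosen with earlier results of these data known. Alternatives were RLE and upper-quartile factors, 2 other filters, DESeq2 1.42.0, limma-voom (limma 3.58.1), a replicate block, leaving out each library, the length correction and a 2-fold limit. The test was checked on simulated counts. 1 of the 39 genes, which the counts include, is not reported here and not drawn. Pf4, Thy1 and Kcnj8, which were on the marker lists, were not analysed here.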

Additional observations from a re-analysis of the deposited data

How the results depend on the processing

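Of the 12 called genes, 9 kept their call in all 14 alternatives of fit. Itgax kept it in the 13 that tested it, since the filter of 1 CPM in 3 libraries left out Itgax and Itgb6, and Itga5 and Itgb6 lost it in some. For Itgam, which is among the 9, and for Itgax and Itgb6, a kept call carries no weight, because they passed the filter only through AAV9-CTRL libraries. Leaving out 1 library gave 4 to 5 higher and 6 to 8 lower integrin, laminin and nidogen genes, 6 to 9 and 4 to 8 in the adhesion list, 7 to 10 and 2 to 3 in the basement membrane list, and 2315 to 3617 and 2927 to 3707 of all genes. Requiring also a change above 2-fold left 1 higher and 4 lower integrin, laminin and nidogen genes, 2 and 0 in the adhesion list, 4 and 1 in the basement membrane list, and 993 and 1053 of all genes. Among these lower genes Itgam, Itgax, Itgb6 and, in the basement membrane list, Pxdn passed the filter only through AAV9-CTRL libraries. Their part in these counts carries no weight. The count of 0 in the adhesion list from edgeR was also 0 at an unadjusted p under 0.05, with DESeq2 and with limma-voom. With the length correction, 11 adhesion genes were lower and 6 basement membrane genes higher, and Tln1 reversed to -0.32. Fewer of all tested genes were called in either direction with that correction. In plain counts, with no division by length, the difference in share, AAV9-hFNDC4 minus AAV9-CTRL, was 5.59 percentage points in place of 7.78 for Lamc1 and 0.222 in place of 0.303 for Lama5. Same-numbered libraries did not deviate together (correlations -0.202 to -0.0585, against -0.0638 to 0.131 for other pairs across the groups). With 3 libraries per group these values cannot decide whether the numbers pair the libraries. With the replicate block 4 of these genes were higher and 7 lower, with 2663 and 3080 of all genes. With the block Itgb6 did not pass (edgeR adjusted p = 0.0622). The 16 genes that could not be tested had 1 to 29 counts in all.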

Other observations

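Further genes of the dystrophin complex and of the basement membrane, picked after their values were seen, are given here as values. Utrn, the widely expressed relative of dystrophin that ties dystroglycan to actin, was higher at 185 ± 6.36 CPM in AAV9-hFNDC4 against 105 ± 19.2 CPM in AAV9-CTRL (log2 fold change 0.81, SE 0.13, edgeR adjusted p = 0.000383). With the length correction its change was 0.17 and did not pass (edgeR adjusted p = 0.131). Dmd, dystrophin itself, had 48 counts over the 6 libraries and was not tested. Col15a1, a basement membrane collagen, was higher at 44.6 ± 16.9 CPM in AAV9-hFNDC4 against 13.8 ± 5.22 CPM in AAV9-CTRL (log2 fold change 1.70, SE 0.30, edgeR adjusted p = 0.00156), and by 1.41 with the length correction (edgeR adjusted p = 0.00844). The paired collagen IV genes differed in their call, with Col4a2 higher by 0.38 (SE 0.10, edgeR adjusted p = 0.00964) and Col4a1 at 0.16 (SE 0.10, edgeR adjusted p = 0.237), and the difference between them was not tested. Col4a2 did not pass with the length correction (0.073, edgeR adjusted p = 0.465) or when AAV9-hFNDC4 replicate 3 was dropped (0.35, edgeR adjusted p = 0.0543).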
